A study of Mus musculus with 12 samples.

Results

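Transcripts of skeletal muscle were followed in inguinal white adipose tissue (iWAT) of 12 mice by RNA-seq. The set held 36 genes of the contractile apparatus, calcium handling and energy supply of muscle fibers, chosen by name from the 54134 genes of the raw count table, and each name was found once. The set was made of 14 genes of fast fibers, 5 genes of slow fibers and 17 genes common to both or with no fiber type. All mice were male C57BL/6J mice injected at 8 weeks of age with an adeno-associated virus (AAV), kept on chow for a further 4 weeks and fasted for 4 h before tissue collection. The 6 AAV-GFP mice (AAV-GFP-2011, AAV-GFP-2012, AAV-GFP-2013, AAV-GFP-2014, AAV-GFP-2021 and AAV-GFP-2022) received virus encoding green fluorescent protein, and the 6 AAV-Notum mice (AAV-Notum-2031, AAV-Notum-2032, AAV-Notum-2033, AAV-Notum-2034, AAV-Notum-2041 and AAV-Notum-2042) received virus encoding mouse Notum, a secreted carboxylesterase that inactivates Wnt proteins. In both groups the thyroxine binding globulin promoter, which acts in hepatocytes, drove the transgene, so the fat itself was not the targeted tissue. In the lists of values that follow, the mice of each group stand in the order of their numbers.

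Skeletal muscle fibers contract by sliding of myosin along actin, and each fiber type uses its own myosin heavy chain. In mice, Myh4 encodes the chain of fast type IIb fibers, Myh1 that of fast IIx fibers, Myh2 that of fast IIa fibers and Myh7 that of slow type I fibers. Troponins I, C and T, which make contraction depend on calcium, likewise have a fast and a slow form. White fat has no striated fibers of its own, but the inguinal depot lies against muscles of the hind limb and the body wall.

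The libraries held 14711113 to 21618860 reads assigned to genes. Adipocyte markers were high in every mouse, with 43185 to 85554 reads of Adipoq, which encodes adiponectin. Notum had 0.112, 0.0595, 0.995, 0.775, 0.0923 and 0.308 CPM in the AAV-GFP mice and 0.457, 29.3, 0.663, 0.905, 26.6 and 0.518 CPM in the AAV-Notum mice, so its level in the fat samples stood above the AAV-GFP range in AAV-Notum-2032 and AAV-Notum-2041. A hepatocyte marker score, the mean log2 CPM of 10 genes, was 3.27 in AAV-Notum-2032 and 5.58 in AAV-Notum-2041. It was -1.56 to 0.37 in the other AAV-Notum mice and -1.12 to 8.30 in the AAV-GFP mice. The source of the Notum reads was not tested. A lymphoid marker score, the mean log2 CPM of 15 genes of B and T cells, was 0.22 in AAV-GFP-2011 and -0.54 in AAV-GFP-2014 and from 3.85 to 7.30 in the other mice. RNA of AAV-GFP-2012 was isolated on 28 November and that of the other 11 mice on 8 November.

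Promoter sequence was examined because most of these genes moved together. Of the 36 genes, 27 were matched in the table of RefSeq promoters used here (GRCm38.p6), with 33 start sites in all. The 4 sequences printed here are the bases before the start of Myh4, Acta1, Ckm and Myh7. The first 3 genes rose and fell together, and Myh7, with 0 to 11 reads in a mouse, did not. Capitals mark E-boxes (CANNTG, the motif read by myogenic bHLH factors), the MEF2 consensus and the CArG box read by serum response factor.
Myh4 (chr11:67237562-67237811, plus strand): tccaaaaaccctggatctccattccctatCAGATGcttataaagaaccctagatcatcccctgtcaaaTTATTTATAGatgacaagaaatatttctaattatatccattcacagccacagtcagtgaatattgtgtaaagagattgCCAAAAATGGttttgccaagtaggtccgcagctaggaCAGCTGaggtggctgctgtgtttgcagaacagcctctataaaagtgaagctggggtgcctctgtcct
Acta1 (chr8:123894776-123895025, minus strand): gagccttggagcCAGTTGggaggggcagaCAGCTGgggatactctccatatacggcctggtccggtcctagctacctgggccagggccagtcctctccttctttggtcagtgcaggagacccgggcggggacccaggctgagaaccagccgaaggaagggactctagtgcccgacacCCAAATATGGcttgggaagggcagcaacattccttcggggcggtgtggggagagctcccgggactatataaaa
Ckm (chr7:19410844-19411024, plus strand, ending before the annotated exon at this start): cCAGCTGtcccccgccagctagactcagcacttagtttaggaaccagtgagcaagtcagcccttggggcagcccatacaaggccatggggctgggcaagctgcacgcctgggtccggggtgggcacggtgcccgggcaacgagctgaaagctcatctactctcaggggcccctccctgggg
Myh7 (the more upstream of its start sites, chr14:54994627-54994876, minus strand): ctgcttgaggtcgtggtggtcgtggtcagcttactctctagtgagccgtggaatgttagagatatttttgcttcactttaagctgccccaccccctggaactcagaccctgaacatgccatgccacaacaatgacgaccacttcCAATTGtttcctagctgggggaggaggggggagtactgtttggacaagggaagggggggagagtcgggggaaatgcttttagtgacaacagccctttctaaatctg

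CAGCTG, an E-box form that is a subset of CANNTG and reads the same on both strands, stood once each in the Myh4, Acta1 and Ckm windows and did not occur in the Myh7 window. It also stood in windows of Atp2a1, Casq1, Mybpc1, Mylpf, Pgam2, Pygm and Tpm2, which followed Myh4 in the test given further below. Windows of Myl1 and Cacna1s, which did not pass that test, held it too, as did those of Mb and Tnni1, which were not tested. It was absent from the windows of Pvalb, Tnnc2, Mybpc2 and Xirp2, which followed. Within at most 250 bases before the start, CAGCTG occurred in 16 of the 33 windows of the set (48.5%) and in 13.0% of all 32851 RefSeq windows. The 33 windows came from 27 genes, so genes with several start sites counted more than once. CANNTG in any form occurred in 81.8% and 66.2%, the MEF2 consensus in 18.2% and 2.9%, and the CArG box in 12.1% and 1.5%, with both strands searched. These are matches of letters, and no binding was measured. The RefSeq start of Myh4 lies before the start that GENCODE vM21 gives, and the 5′ end of its window overlaps an exon of the antisense gene Myhas.

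Every mouse had reads of the set, but the amount differed widely between mice. The 36 genes together took 1918 to 109656 reads, or 0.0117% to 0.626% of a library, and AAV-Notum-2042 held the most. Counts were scaled to library size as CPM (counts relative to the TMM-normalized library size). The summed level was 1073, 1529, 416, 204, 128 and 118 CPM in the AAV-GFP mice and 137, 105, 1034, 116, 169 and 7099 CPM in the AAV-Notum mice. High and low mice were present in both groups. AAV-GFP-2011, AAV-GFP-2012, AAV-Notum-2033 and AAV-Notum-2042 were at 1034 CPM or more, 7 mice lay between 105.3 and 204.5 CPM, and AAV-GFP-2013 lay between them. In bulk tissue, fewer fibers and less RNA per fiber cannot be told apart.

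**Figure D1:**
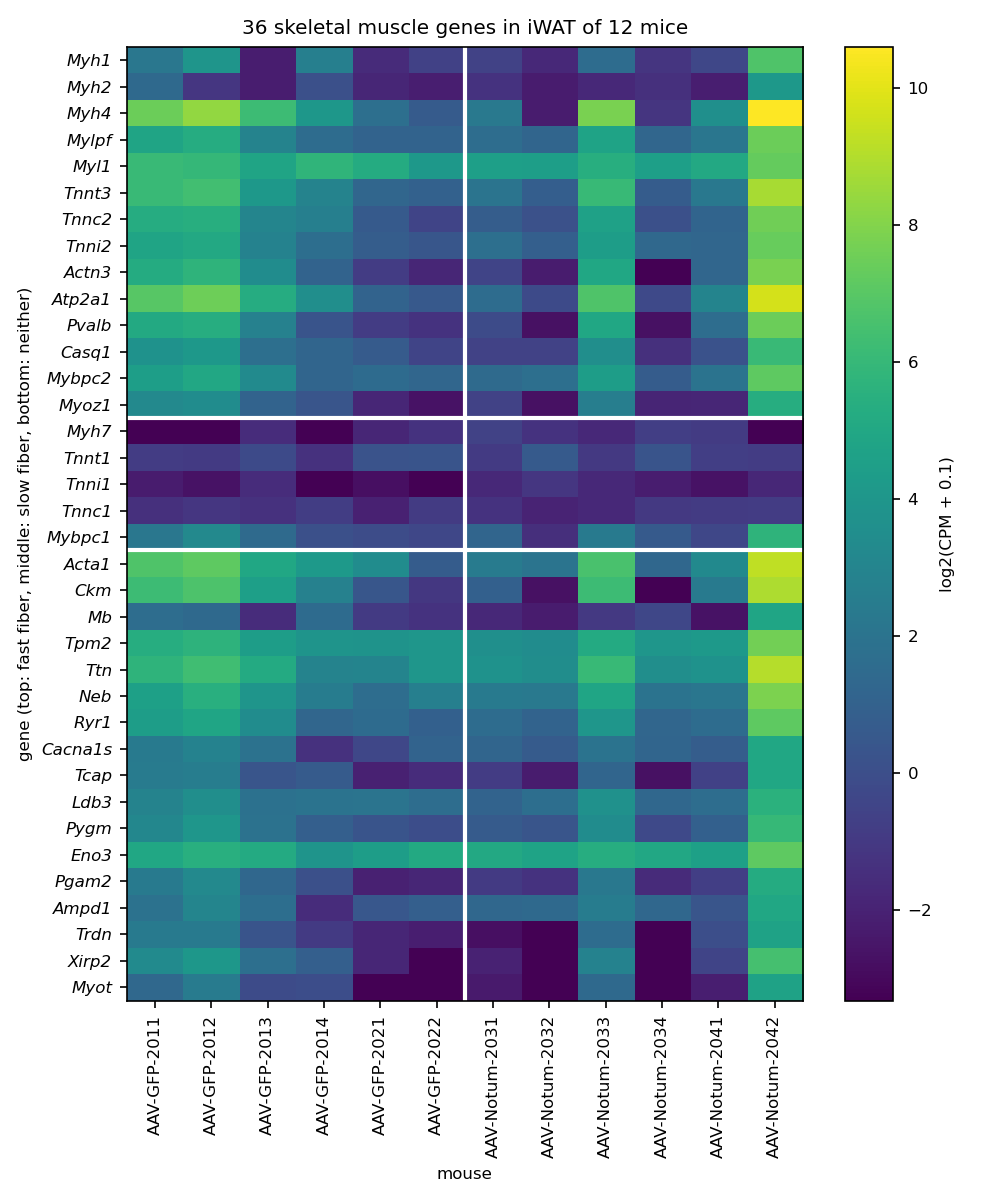
Level of each of the 36 genes (rows) in each of the 12 mice (columns), as log2 of CPM plus 0.1. AAV-Notum-2042 has the brightest column, AAV-GFP-2011, AAV-GFP-2012 and AAV-Notum-2033 are next, and 4 of the 5 slow fiber genes stay dark in every column.

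Myh4 (ENSMUSG00000057003, chromosome 11, 67238029 to 67260446 of GRCm38) spread over a wide range. It had 177, 325, 74.4, 16.6, 3.28 and 1.48 CPM in the AAV-GFP mice and 4.88, 0.105, 219.5, 0.339, 12.3 and 1546 CPM in the AAV-Notum mice. In reads, it ran from 2 in AAV-Notum-2032 and 6 in AAV-Notum-2034 to 23881 in AAV-Notum-2042. The groups overlapped, with the AAV-GFP range of 1.48 to 325 CPM inside the wider AAV-Notum range of 0.105 to 1546 CPM. The AAV-GFP mean was 99.5 ± 129 CPM and the AAV-Notum mean 297 ± 618 CPM (SD, 6 mice each). edgeR fitted a log2 fold change of 1.58 (SE 1.77, adjusted p = 0.629, edgeR's quasi-likelihood test with Benjamini-Hochberg adjustment over 15585 genes). On the log scale the AAV-Notum mean was lower, by 1.25 on the log2 scale (two-sided exact permutation test, p = 0.606). AAV-Notum-2042 set the direction. Without it the mean of AAV-Notum mice was 47.4 ± 96.3 CPM (SD, n = 5) and the log2 fold change was -1.07, and with limma-voom on all mice it was -1.65.

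Neither group had more of the set than the spread between mice. Of the 36 genes, 30 passed the filter on low counts, and the other 6 were Myh2, Myh7, Mb, Tnni1, Tnnt1 and Tnnc1. None of the 30 had an adjusted p under 0.05 in edgeR's quasi-likelihood test, against 8 of 15585 genes tested in all (0.0513%). None reached an unadjusted p under 0.05 in edgeR's test either, where 14.2% of all genes tested did. The smallest was that of Eno3 (edgeR unadjusted p = 0.139). Of the 28 genes of the set to which DESeq2 gave a p, and of the 30 that limma-voom fitted, 0 had an adjusted or unadjusted p under 0.05. Over all genes, DESeq2 called 451 and limma-voom 6 at an adjusted p under 0.05. For none of the 36 genes were the groups free of overlap, against 1.09% of all genes tested. The fitted log2 fold change was above 0 for 30 of 30 genes, with a median of 1.30 beside 0.01 over all genes, but for 12 of 30 with limma-voom and for 2 of 31 genes without AAV-Notum-2042, where the median was -1.02.

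Acta1 of the thin filament, Ckm of energy supply and the calcium buffer Pvalb varied between mice in the same way. Acta1 (ENSMUSG00000031972, chromosome 8, 123891769 to 123894751), skeletal alpha-actin, had 108, 144, 31.0, 18.1, 10.7 and 1.54 CPM in the AAV-GFP mice and 5.39, 3.98, 97.5, 2.43, 9.78 and 614 CPM in the AAV-Notum mice. Ckm (ENSMUSG00000030399, chromosome 7, 19404776 to 19422841), the muscle creatine kinase, had 75.0, 103, 22.9, 6.85, 1.25 and 0.369 CPM in the AAV-GFP mice and 1.83, 0.0524, 73.2, 0, 4.98 and 464 CPM in the AAV-Notum mice. Pvalb, the calcium buffer parvalbumin of fast fibers, had 34.6, 41.1, 6.91, 1.13, 0.461 and 0.308 CPM in the AAV-GFP mice and 0.813, 0.0524, 30.9, 0.0566, 3.08 and 179.9 CPM in the AAV-Notum mice. The same 4 mice stood highest for all 3 genes, and Ckm and Pvalb were at or near 0 in AAV-Notum-2032 and AAV-Notum-2034. The log2 fold changes of AAV-Notum against AAV-GFP were 1.23 for Acta1 (standard error 1.37, edgeR adjusted p = 0.628) and 1.37 for Ckm (standard error 1.69, edgeR adjusted p = 0.657). Both were below 0 without AAV-Notum-2042 and with limma-voom.

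Per kilobase of exon, the order of the genes in AAV-Notum-2042 was led by Acta1 at 399.9 CPM per kb, followed by Tnnt3 (281), Myh4 (257), Atp2a1 (243) and Tnnc2 (238). Atp2a1 encodes the fast fiber calcium pump SERCA1. In AAV-Notum-2032, the mouse with the least Myh4, the order was Eno3 at 15.2 CPM per kb, Myl1 at 10.7, Tpm2 at 3.78, Acta1 at 2.59 and Mylpf at 2.12, while Myh4 itself was at 0.0174 CPM per kb. The genes that led the 2 mice were thus different ones, with Acta1 the only gene among the first 5 of both.

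Fast fiber genes made up most reads with a fiber type in every mouse. The 14 fast genes took 485 to 66441 reads per mouse, while Myh7, Tnni1, Tnnt1 and Tnnc1 together took 13 to 43. Summed over each list, the log2 ratio of fast to slow CPM averaged 5.58 ± 1.27 for AAV-GFP and 4.83 ± 1.45 for AAV-Notum (SD, 6 mice each), and the ranges of 3.56 to 6.96 and 3.28 to 6.69 overlapped. Single genes weigh on that ratio at both ends. In the high mice most slow list reads came from Mybpc1, with 831 of them in AAV-Notum-2042, and in the 7 mice of lowest summed level Myl1 alone gave 43.3% to 67.9% of the fast list reads, with 422 of 650 in AAV-Notum-2032. Mybpc1, which encodes myosin binding protein C of the slow type, was the only slow gene to pass the filter on low counts, and it rose and fell with Myh4 (r = 0.87, adjusted p = 0.0319, permutation test). That call was lost under 11 of 18 alternatives, with r = 0.85 and an adjusted p of 0.221 without AAV-Notum-2042 (permutation test).

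Myh7 (ENSMUSG00000053093, chromosome 14, 54970684 to 54994626) had 0, 0, 4, 0, 4 and 5 reads in the AAV-GFP mice and 11, 6, 3, 9, 7 and 0 reads in the AAV-Notum mice. It was at 0 in 4 mice, and these included AAV-GFP-2011, AAV-GFP-2012 and AAV-Notum-2042, which were among the highest in Myh4. Among the reads of Myh4 and Myh7 in AAV-Notum-2042, 0 of 23881 belonged to Myh7, which allows a share of up to 0.0154% by the 95% Clopper-Pearson interval. Its exons are shared in part with Mhrt and Gm31251 on the opposite strand and by sequence with the cardiac gene Myh6, so a few reads cannot be placed with certainty.

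The slow troponins were as low. Slow troponin I, Tnni1, had 2, 1, 4, 0, 1 and 0 reads in the AAV-GFP mice and 4, 7, 3, 2, 1 and 3 reads in the AAV-Notum mice, and its fast partner Tnni2 had 498, 572, 122, 54, 35 and 20 reads in the AAV-GFP mice and 65, 34, 324, 44, 38 and 2546 reads in the AAV-Notum mice. In AAV-Notum-2042 Tnni1 made up 0.118% of the reads of the pair (95% Clopper-Pearson interval 0.024% to 0.344%), and in AAV-Notum-2032 it made up 17.1% (7.15% to 32.1%). In that mouse, Tnnt1 made up 45.8% of the reads of Tnnt1 and Tnnt3 (32.7% to 59.2%), and Myh7 made up 6 of the 8 reads of Myh7 and Myh4. Slow troponin C, Tnnc1, had 5, 6, 5, 8, 3 and 7 reads in the AAV-GFP mice and 6, 3, 3, 7, 7 and 7 reads in the AAV-Notum mice, and Tnnc2 had 705, 698, 137, 106, 31 and 10 reads in the AAV-GFP mice and 32, 19, 373, 17, 35 and 2946 reads in the AAV-Notum mice. Slow troponin T, Tnnt1, had 8, 7, 13, 5, 23 and 18 reads in the AAV-GFP mice and 8, 27, 6, 20, 8 and 7 reads in the AAV-Notum mice, and Tnnt3 had 1238, 1392, 294, 124, 51 and 31 reads in the AAV-GFP mice and 80, 32, 991, 28, 77 and 6882 reads in the AAV-Notum mice. The fast forms thus varied with Myh4 while the slow forms stayed at 0 to 27 reads. The share of the slow form was not always higher where fast reads were few, since Tnni1 had 0 reads in AAV-GFP-2022, the mouse with the fewest reads of Tnni2. At these counts the slow genes were close to the limit of detection, and the intervals and limits given here cover counting error only.

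**Figure D2:**
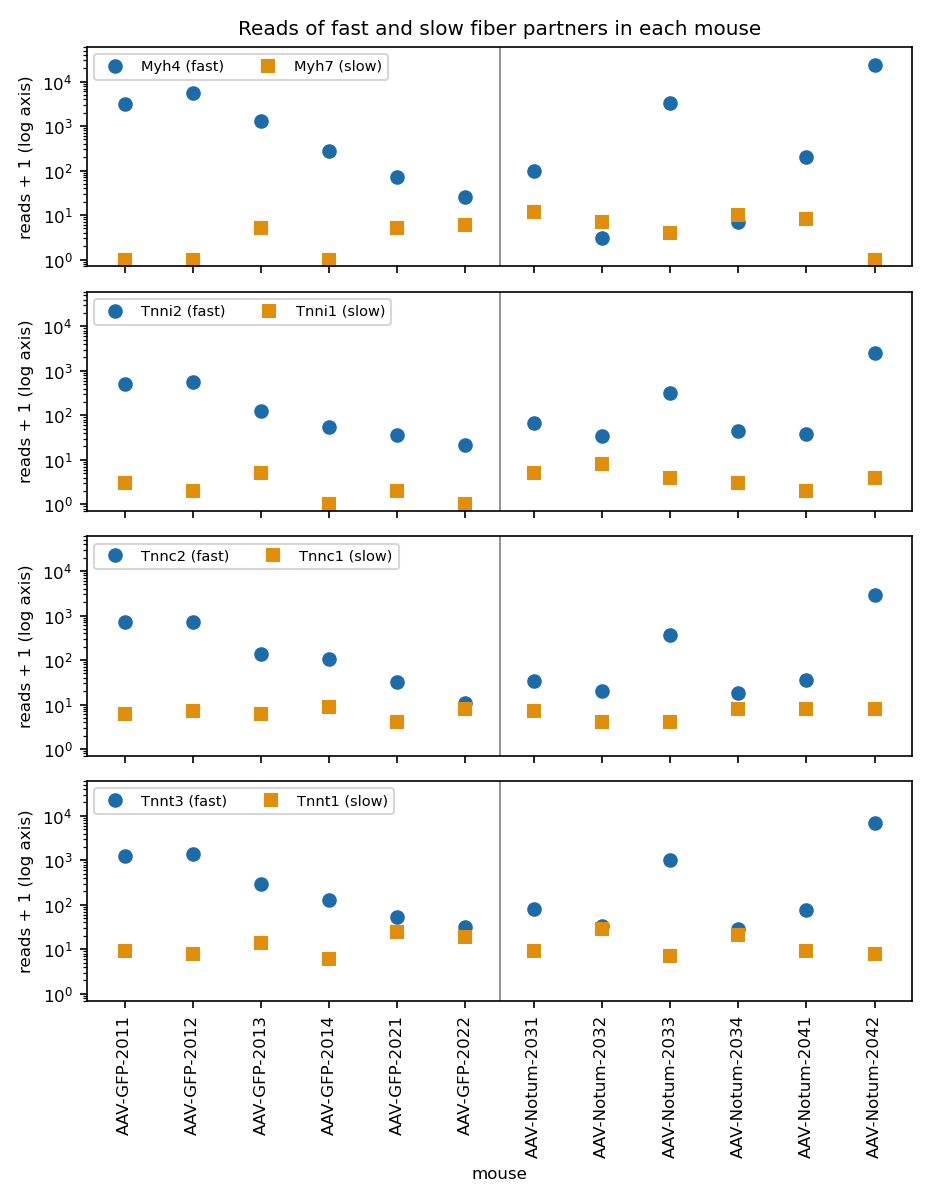
Reads plus 1 (log axis) of each fast fiber gene (circles) and its slow partner (squares) in each mouse, with AAV-GFP mice left and AAV-Notum mice right of the line. The fast genes span 2 to 23881 reads and the slow genes stay between 0 and 27 reads.

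Within the fast fiber myosins, the shares of Myh1 and Myh2 differed between mice by more than their counting intervals. Each mouse gave 1 library, so variation from dissection or library preparation was not measured. Myh1 (ENSMUSG00000056328, chromosome 11, 67200052 to 67224575) had 81, 251, 2, 106, 5 and 9 reads in the AAV-GFP mice and 11, 4, 44, 6, 11 and 1701 reads in the AAV-Notum mice. Myh2 (ENSMUSG00000033196, chromosome 11, 67171027 to 67197517) had 47, 6, 2, 16, 4 and 2 reads in the AAV-GFP mice and 6, 2, 3, 5, 2 and 259 reads in the AAV-Notum mice. Among the reads of Myh1, Myh2 and Myh4 together, Myh1 made up 26.4% in AAV-GFP-2014 (95% Clopper-Pearson interval 22.2% to 31.0%) but 0.157% in AAV-GFP-2013 (0.019% to 0.565%), although AAV-GFP-2013 had more Myh4. It made up 6.58% in AAV-Notum-2042 (6.28% to 6.89%) and 1.31% in AAV-Notum-2033 (0.954% to 1.75%). Myh2 made up 1.43% in AAV-GFP-2011 (1.05% to 1.90%) and 0.105% in AAV-GFP-2012 (0.039% to 0.229%), 2 mice with like shares of Myh4.

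Myoglobin (Mb), the oxygen store of oxidative fibers, had 55, 44, 4, 48, 9 and 5 reads in the AAV-GFP mice and 4, 2, 6, 12, 1 and 444 reads in the AAV-Notum mice. Relative to Myh4 reads, Mb was at 17.2% in AAV-GFP-2014, at 0.315% in AAV-GFP-2013 and at 0.181% in AAV-Notum-2033. The mice with the most Mb after AAV-Notum-2042 were AAV-GFP-2011, AAV-GFP-2014 and AAV-GFP-2012, which had also the most Myh1. The 3 myosins share sequence, with 19.9% of the 50-base windows of Myh4, 32.0% of those of Myh1 and 25.6% of those of Myh2 also found in another gene, and how such reads were assigned is not given in the sources used here. Mb shares 31.9% of its exon bases with genes on the opposite strand.

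**Figure D3:**
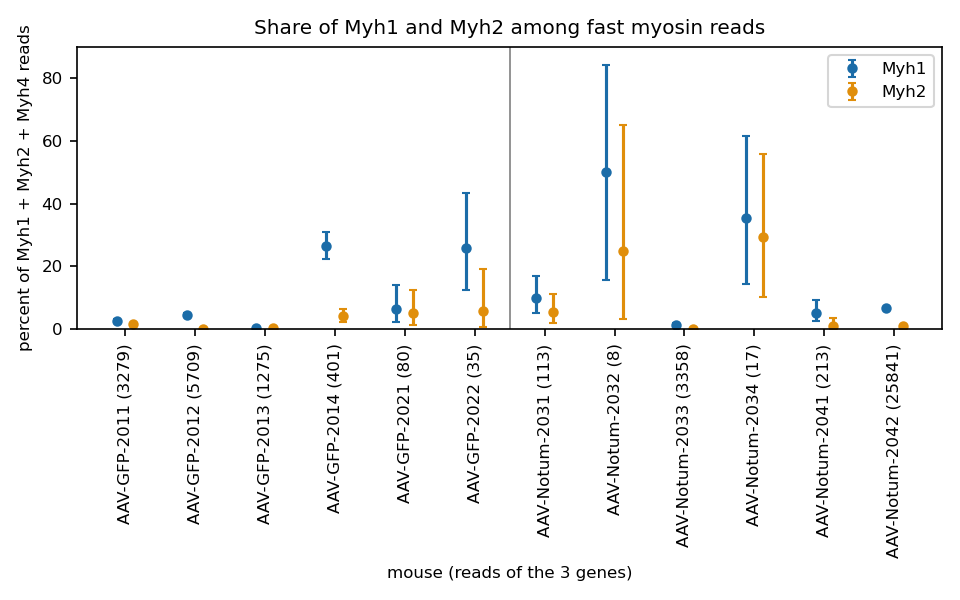
Share of Myh1 and Myh2 among the reads of Myh1, Myh2 and Myh4 in each mouse, in percent, with the reads of the 3 genes in brackets and bars for the 95% Clopper-Pearson interval. Among mice with at least 1275 such reads the Myh1 share runs from 0.157% to 6.58%, and AAV-GFP-2014, with 401 reads, is at 26.4%.

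Whether a gene followed Myh4 was taken from the correlation of log2 CPM over the 12 mice (permutation test with 100000 resamples, adjusted over 15584 genes). Of the 29 genes tested beside Myh4, 22 followed it, against 51 of all 15584 genes (0.327%). Their r ran from 0.849 to 0.995, from 0.872 to 0.997 within the AAV-GFP mice and from 0.875 to 0.995 within the AAV-Notum mice (n = 6 each, as a description). Ckm was closest (r = 0.995, Spearman's rho = 0.986, adjusted p = 0.00623 by permutation), and its r was 0.997 without AAV-Notum-2042 and AAV-Notum-2032, the 2 mice farthest from the median of Myh4. An adjusted p of 0.00623 is the smallest reached, since the permutations can give no p under 1e-05. Without AAV-Notum-2042, the highest mouse, the count was 12 of 29, of 19 such genes in all, although r changed little. The r of the 22 genes then ran from 0.846 to 0.994, and for the 10 that no longer passed it moved by -0.025 to 0.014. Of the fast fiber genes tested, 10 of 12 followed (Mylpf, Tnnt3, Tnnc2, Tnni2, Actn3, Atp2a1, Pvalb, Casq1, Mybpc2 and Myoz1), and of the genes with no fiber type 11 of 16 did. The call for Mybpc2 was lost under 9 of 18 alternatives, and that for Neb, of no fiber type, under 12 of 18. Under the setting used here and each of 18 alternatives, Ckm, Tnnt3, Actn3, Atp2a1, Pvalb, Casq1, Tcap, Pygm, Xirp2 and Myot followed, and Tnnc2 did under each setting in which it was tested.

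A gene can follow Myh4 without being in proportion to it. Ckm had 30.03% to 42.49% as many reads as Myh4 in the 7 mice with at least 50 reads of both genes, and the slope of its log2 CPM on that of Myh4 was 0.96 (standard error 0.03, n = 12), where 1 means in proportion. The slope was 0.88 for Actn3, which anchors actin in the Z disc of fast fibers, and 0.83 for both Atp2a1 and Pvalb. In the normalized table the slope was 0.64 for Atp2a1, 0.88 for Ckm, 0.84 for Actn3 and 0.83 for Pvalb. Acta1 was flatter, with a slope of 0.62 (standard error 0.07), and had 39.7% as many reads as Myh4 in AAV-Notum-2042 and 327% in AAV-GFP-2021. Tpm2, the beta-tropomyosin that smooth muscle also uses, passed the test (r = 0.85, rho = 0.85, adjusted p = 0.00623, r = 0.84 without the 2 farthest mice, permutation test) with a slope of 0.25 (standard error 0.05). The call for Tpm2 was lost under 8 of 18 alternatives, with an adjusted p of 0.182 without AAV-Notum-2042 and 0.419 without the 2 farthest mice (permutation test). It had 210 to 851 reads in 11 mice and 3104 in AAV-Notum-2042. The prior count of 2 that log2 CPM carries flattens the slope of genes with few reads.

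**Figure D4:**
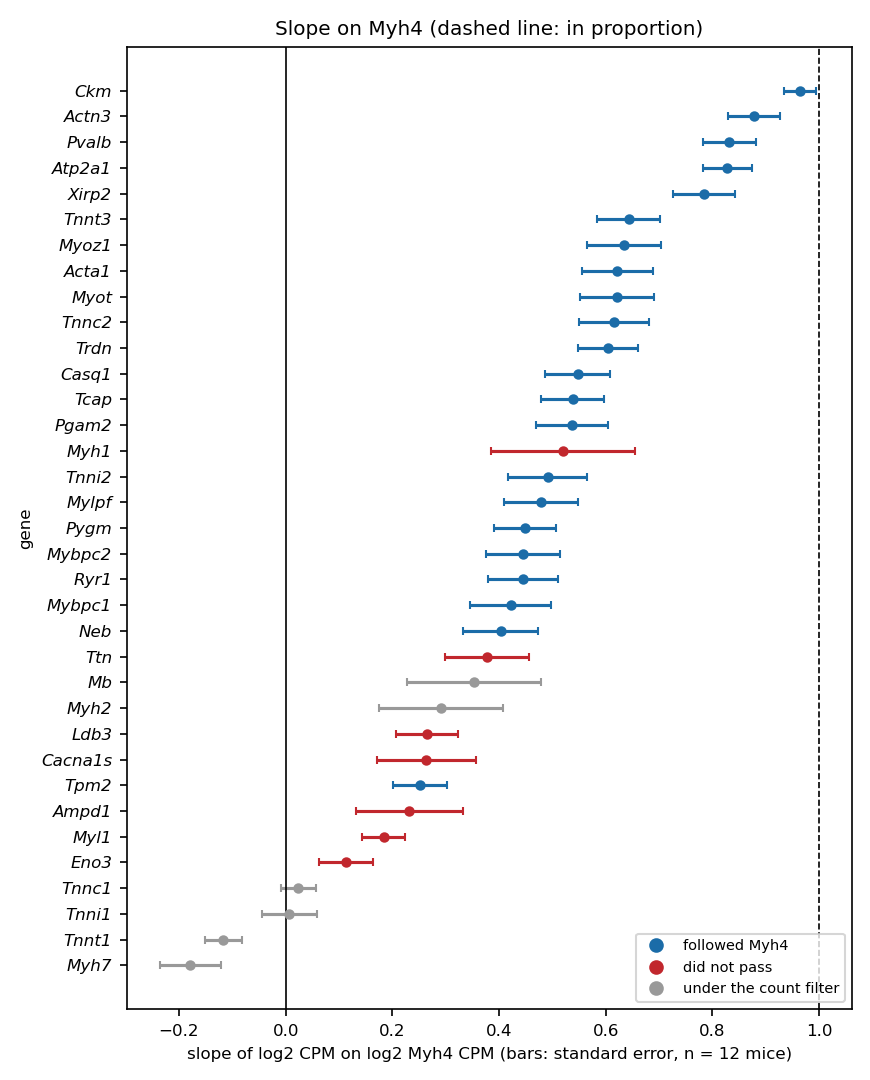
Slope of each gene's log2 CPM on that of Myh4 over the 12 mice, with its standard error. Ckm lies at 0.96, near the dashed line at 1 that marks proportion, Eno3, Myl1, Ampd1 and Tpm2 lie between 0.11 and 0.25, and Myh7 and Tnnt1 lie below 0.

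The 7 tested genes that did not pass were Myh1, Myl1, Ttn, Ldb3, Cacna1s, Eno3 and Ampd1. Eno3 and Ampd1 passed under none of the 19 settings and Cacna1s under none of the 18 in which it was tested, since its reads in the normalized table did not pass the filter. Eno3 (ENSMUSG00000060600, chromosome 11, 70657202 to 70662513), the muscle form of the glycolytic enzyme enolase, had 31.6, 44.0, 36.3, 14.7, 21.4 and 35.3 CPM in the AAV-GFP mice and 33.6, 26.4, 40.2, 32.9, 23.7 and 143 CPM in the AAV-Notum mice. It stayed within 14.7 to 44.0 CPM in 11 mice and was high in AAV-Notum-2042. In AAV-Notum-2032, where Myh4 had 2 reads, Eno3 had 504 reads, while 0.186 would be in proportion to AAV-Notum-2042. Its correlation with Myh4 was r = 0.58 (rho = 0.58, adjusted p = 0.152 by permutation, r = 0.31 without the 2 farthest mice), with a slope of 0.11 (standard error 0.05).

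Myl1 (ENSMUSG00000061816, chromosome 1, 66924295 to 66945404), the alkali light chain of fast myosin, had 68.3, 61.6, 27.9, 54.3, 38.0 and 17.1 CPM in the AAV-GFP mice and 23.3, 22.1, 42.4, 23.4, 34.3 and 159.9 CPM in the AAV-Notum mice. It too kept a level in the mice with little Myh4, with 422 reads in AAV-Notum-2032 where 0.207 would be in proportion. Its correlation was higher (r = 0.82, rho = 0.85, adjusted p = 0.103 by permutation, r = 0.74 without the 2 farthest mice), but its slope was only 0.18 (standard error 0.04). AAV-GFP-2014 and AAV-GFP-2021 had more Myl1 than AAV-GFP-2013, against the order of Myh4. Against the lymphoid score Myl1 had r = -0.55 over the 12 mice (adjusted p = 0.111, permutation test), rho = -0.895 (adjusted p = 0.00115, permutation test) and r = -0.74 without AAV-GFP-2011 and AAV-GFP-2014, the 2 mice farthest from the median score. The part of lymphoid cells in the Myl1 level was not tested. The mouse pseudogene Mylf-ps shares 11.7% of the 50-base windows of Myl1. Between the groups the log2 fold change was 0.19 for Myl1 (standard error 0.53, edgeR adjusted p = 0.855) and 0.71 for Eno3 (standard error 0.45, edgeR adjusted p = 0.454). Without AAV-Notum-2042 these were -0.61 and 0.04.

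Ampd1 (ENSMUSG00000070385, chromosome 3, 103074014 to 103099720), the AMP deaminase of muscle, had 3.75, 8.04, 3.22, 0.238, 1.29 and 1.79 CPM in the AAV-GFP mice and 2.44, 2.62, 5.63, 2.43, 1.17 and 31.1 CPM in the AAV-Notum mice. Cacna1s (ENSMUSG00000026407, chromosome 1, 136052750 to 136119822), the voltage sensor that couples excitation to contraction, had 5.32, 7.15, 3.75, 0.298, 0.692 and 2.09 CPM in the AAV-GFP mice and 2.24, 1.52, 3.78, 2.26, 1.60 and 31.2 CPM in the AAV-Notum mice. In these counts both were lowest in AAV-GFP-2014, which had 16.6 CPM of Myh4, and higher in AAV-Notum-2032, which had 0.105 CPM. For Cacna1s that order turned in the normalized table, which held 4 reads in AAV-GFP-2014 and 0 in AAV-Notum-2032, where the raw table held 5 and 29. The normalized table also held 0 Cacna1s reads in AAV-GFP-2021 and AAV-Notum-2034 and 1 in AAV-GFP-2022, where the raw table held 15, 40 and 34, so the Cacna1s level at low Myh4 was present in the raw table alone. AAV-GFP-2014 was also the mouse of lowest Eno3 and of lowest Ttn, and the mouse with the lowest lymphoid marker score (-0.54). AAV-GFP-2011, with a score of 0.22, had 3.75 CPM of Ampd1 and 5.32 CPM of Cacna1s. Over the 12 mice r with that score was above 0 for Eno3 (0.227), Ampd1 (0.226) and Cacna1s (0.1). By Pearson's r none of the 30 genes tested had an adjusted p under 0.05 (lowest 0.111, permutation test). Among the 10 mice other than AAV-GFP-2011 and AAV-GFP-2014, r was below 0 for 30 of the 30 genes, from -0.767 (Myh1) to -0.489 (Eno3). It was -0.71 for Myh4 and -0.61 for both Ampd1 and Cacna1s. This is a description, since these mice were set apart by the score, and the share over all genes is not given. Without AAV-GFP-2012 and AAV-Notum-2042, the 2 of these mice farthest from the median score, r was -0.56 for Myh4, 0.283 for Ampd1 and 0.222 for Cacna1s. By ranks over the 12 mice, 17 of the 30 genes were lower at higher score, beside 28.9% of all genes tested (adjusted p under 0.05, permutation test), and since most of the 30 follow Myh4 they are not independent of each other. Ampd1 (rho = -0.077) and Cacna1s (rho = -0.203) were not among the 17. The part of lymphoid cells in these levels was not tested. With Myh4, r was 0.59 for Ampd1 (rho = 0.65, adjusted p = 0.152 by permutation, 0.49 without the 2 farthest mice) and 0.67 for Cacna1s (rho = 0.72, adjusted p = 0.131 by permutation, 0.53 without them).

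Ttn and Ldb3 lay nearer to the threshold. Ttn, the giant spring protein of the sarcomere, had 123 to 1364 reads in 11 mice and 8275 in AAV-Notum-2042 (r = 0.83, rho = 0.77, adjusted p = 0.0733 by permutation, 0.82 without the 2 farthest mice), and 218 reads in AAV-Notum-2032. Its log2 fold change was 1.69 (standard error 1.09, edgeR adjusted p = 0.458) and -0.52 without AAV-Notum-2042. Ldb3, a Z disc protein, had 41 to 198 reads in 11 mice and 739 in AAV-Notum-2042 (r = 0.82, rho = 0.78, adjusted p = 0.0623 by permutation, 0.83 without the 2 farthest mice), and 61 in AAV-Notum-2032. Myh1 differed in kind, with a slope of 0.52 and reads that fell to 2 in AAV-GFP-2013 (r = 0.77, rho = 0.74, adjusted p = 0.118 by permutation, 0.64 without them). Which cells held the Eno3, Myl1, Tpm2, Ttn and Ldb3 reads of the mice with little Myh4 was not tested.

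**Figure D5:**
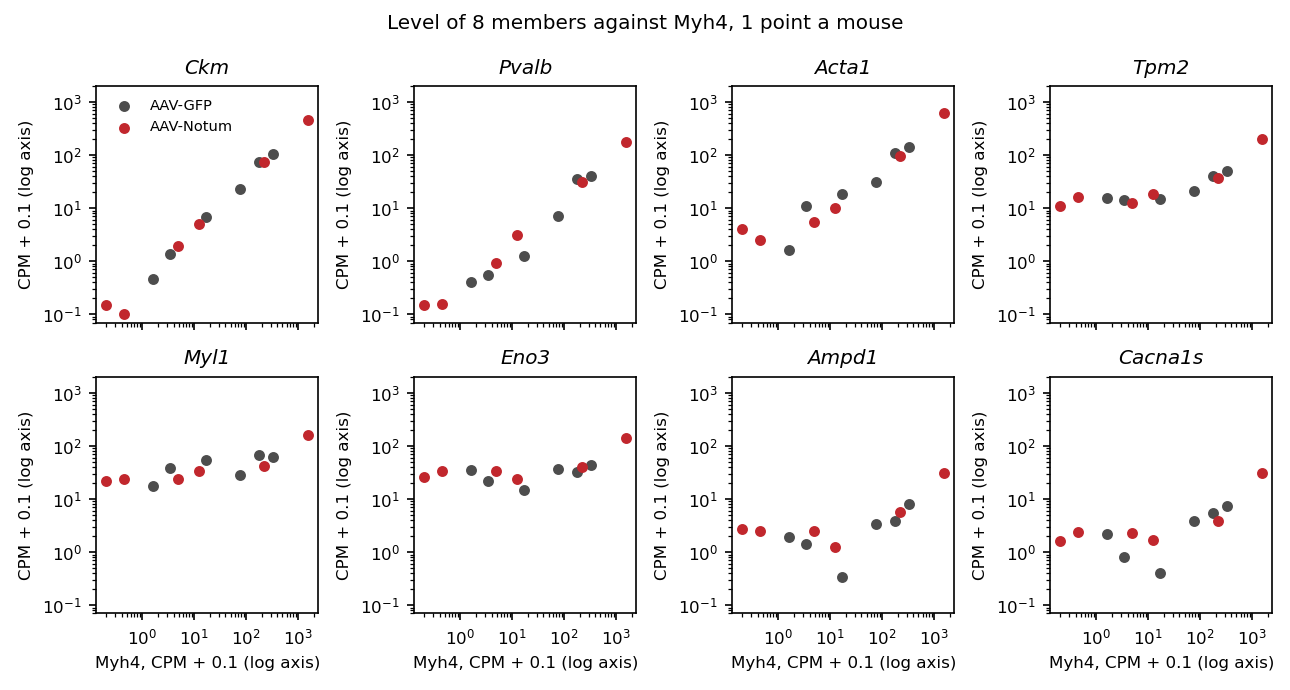
CPM plus 0.1 of 8 genes against Myh4 in the 12 mice, both axes logarithmic, AAV-GFP in grey and AAV-Notum in red. Ckm and Pvalb fall along a line down to 0 to 0.0566 CPM in AAV-Notum-2032 and AAV-Notum-2034, while Myl1 and Eno3 level off at 22.1 to 32.9 CPM in those mice.

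The 2 deposited tables were identical for 0 of the 36 genes, and the totals of 9 genes differed by over 10%. The normalized table, whose values gave back whole reads for 100% of nonzero entries, held 39 reads of Tnnc2 in all mice together where the raw table held 5109. Tnnc2 shares 74.0% of its exon bases with Ube2c, a gene on the opposite strand. Ckm was at 62.9% of its raw reads, Cacna1s at 59.3%, Mb at 56.2% and Atp2a1 at 73.3%, and these share 15.5% to 31.9% of their exon bases with genes on the opposite strand. Myh7 stood at 83.7%, Myh1 at 89.7%, Tnnc1 at 121% and Pgam2 at 129%. The 21 genes that share no exon base, Tnnc1 and Pgam2 among them, stood at 101.1% to 128.8%. For Atp2a1 the difference turned with the level, since the normalized table held 56 reads in AAV-Notum-2032, 41 in AAV-Notum-2034 and 42 in AAV-GFP-2022, where the raw table held 15, 13 and 22, but 9417 in AAV-Notum-2042, where the raw table held 13026. The slope on Myh4 was also lower in the normalized table for Pgam2 (0.28 beside 0.54) and Mylpf (0.38 beside 0.48), and higher for Cacna1s (0.61 beside 0.26). For Tnnc2 the slope was 0.23 beside 0.62, but 26 of the 39 Tnnc2 reads there were in AAV-Notum-2042. Tnnc2 did not pass the filter in that table, and the prior count flattens a slope at so few reads. In AAV-Notum-2042 Ube2c had 170 reads in the raw table and 92 in the other.

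Other genes of muscle moved with the set in part. Of 47 further skeletal muscle genes, 28 passed the filter and 10 of these followed Myh4 (Myom1, Myom2, Nrap, Sypl2, Jph2, Hfe2, Cmya5, Synpo2l, Srl and Hrc), and 0 of the 28 differed between the groups at an adjusted p under 0.05 in edgeR's test (0 by DESeq2 or limma-voom after adjustment). At an unadjusted p under 0.05 in edgeR's test there were 3 of 28 (Actn2, Asb2 and Scn4a), beside 14.2% of all genes tested, and without AAV-Notum-2042 there was 1, Jph1, and none of those 3. The median log2 fold change was 0.63, beside 1.30 for the 30 genes of the set, and -0.27 without AAV-Notum-2042. Myom2, an M band protein, had 4.65, 9.77, 2.40, 1.13, 0.185 and 0 CPM in the AAV-GFP mice and 0.610, 0.0524, 5.37, 0.113, 0.615 and 51.8 CPM in the AAV-Notum mice. Sln, the sarcolipin of slow and atrial muscle, had at most 1 read in any mouse. The 8 other slow fiber genes included 2 that passed the filter, Atp2a2 and Tpm3, which many tissues use, and neither followed Myh4. Among those under the filter and not tested, Smpx had 0.6725, 1.429, 0.2341, 0.298, 0.2307 and 0 CPM in the AAV-GFP mice. In the AAV-Notum mice it had 0.0508, 0, 0.6629, 0.0566, 0.1231 and 6.215 CPM, the last from 96 reads. The 5 genes of at least 1 CPM on average closest to Myh4 that are not in the set were Myom2 (r = 0.96), Eef1a2 (r = 0.96), the elongation factor of muscle and neurons, Mylk4 (r = 0.96), a myosin light chain kinase, Hrc (r = 0.95) and Cxxc4 (r = 0.94), each with an adjusted p of 0.00623 by permutation (n = 12). Of these, Eef1a2, Mylk4 and Cxxc4 were in none of the lists.

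Genes of muscle precursors, of other muscle and of skin were low or did not pass the test of following Myh4. Of 16 myogenic regulators and satellite cell genes, 10 had at most 3 reads in every mouse, among them Myod1, Myf5, Myog and Pax7. Myf6 had at most 17 reads, Musk 10, Chrne 9 and Cdh15 6. In the same list Mef2c had 387 to 2421 reads and Chrnb1 had 60 to 142. These 2 genes passed the filter, and neither followed Myh4. Of 8 cardiac markers, Myh6, Nppa, Nppb and Myl7 also had at most 3 reads, and Myl2 had at most 4. Myl4 had 4.56 to 11.4 CPM, Tnni3 0.775 to 4.68 CPM and Ryr2 0.280 to 2.93 CPM, and 0 of these 3 followed Myh4. Smooth muscle markers summed to 235 to 319.7 CPM in AAV-GFP mice and 194 to 251 CPM in AAV-Notum mice, and 0 of 8 followed Myh4. Of 10 keratinocyte markers of skin, Krt5, Krt14, Krt1, Krt15 and Lor had at most 3 reads. The 10 summed to 13.9 to 39.0 CPM in AAV-GFP mice and 17.4 to 31.5 CPM in AAV-Notum mice, most of it Sbsn (8.74 to 21.3 CPM) and Trp63 (3.45 to 14.7 CPM). The r with Myh4 was 0.74 for Sbsn, 0.64 for Trp63 and 0.24 for Krt10, and 0 of these 3 followed it (adjusted p = 0.120, 0.142 and 0.559, permutation test).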

How the data were processed

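Each of the 12 mice (6 AAV-GFP, 6 AAV-Notum) was 1 iWAT sample. Per the labels and the study's methods, the authors isolated RNA (RNA integrity number 5.7 to 7.6), prepared TruSeq libraries, read 50 bases from 1 end on a HiSeq4000, aligned with STAR 2.3.1 to mm10 and used DESeq2 for testing. The program, annotation and strand setting of the counting are not given in the sources used here. The raw counts per gene, as deposited by the authors, were the main data. The other table, as deposited by the authors, holds log2 values, whose steps show that reads were scaled by 1 factor for each mouse and that 1 was added before the logarithm. Reversing these steps returned whole reads for 100% of nonzero values within 0.05 of a read, but from another count of the reads.

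Group differences were fitted with edgeR 4.0.16 (R 4.3.3): filterByExpr (minimum count 10, minimum total 15), TMM, glmQLFit and a two-sided quasi-likelihood test, with Benjamini-Hochberg adjustment over 15585 genes and a threshold of 0.05. log2 CPM carry a prior count of 2. Exact permutation tests (two-sided) ran over the 924 assignments of mice to groups, where the smallest p is 0.00216, and correlations were tested with 100000 permutations. Fits were tested on simulated data. Exon lengths, overlaps and positions came from GENCODE vM21 (GRCm38), promoters from RefSeq. The MEF2 consensus and the CArG box were searched with ambiguous letters.

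Myh4, the other myosins, the troponin pairs, Acta1, Ckm, Mb, Pvalb and the 6 genes of lowest r with Myh4 (Myh7, Tnnt1, Tnni1, Tnnc1, Eno3 and Ampd1) were named in full, and outside the set the 5 genes of highest r and Notum. Myl1, Cacna1s, Tpm2, Ttn and Ldb3 were described after their values were seen. The genes and lists were chosen with earlier results of these data known. A planned mean over the 3 mice of lowest and the 3 of highest Myh4 was not used, since it would group mice by a measured level. Alternatives were DESeq2 1.42.0, limma-voom (limma 3.58.1), size factors by RLE, a lower filter (at least 1 count), the RNA integrity number as a covariate, reads recovered from the normalized table, library totals, a prior count of 0.5, Spearman's rho and each mouse left out. Total counts per mouse were 14711113 to 21618860, which makes genes of under about 10 reads imprecise. Plots were made in Python 3.11.15 (matplotlib 3.10.9).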

Additional observations from a re-analysis of the deposited data

Results flagged for a closer look

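In 5 of 72 groups of 6 mice (36 genes in 2 groups), 1 mouse lay far from the others on the log2 CPM scale by Dixon's ratio, the gap to the nearest mouse divided by the range (past its 95% critical value for 6 samples), and chance gives about 1 in 20, or 3.6. On the linear CPM scale AAV-Notum-2042 was past that value for 32 of the 36 genes. In all 5 groups on the log2 scale it was AAV-Notum-2042, with the highest level among the AAV-Notum mice. For Myh2 the ratio was 0.851, with 16.8 CPM beside 0.105 to 0.305 CPM in the other 5 mice. For Mb it was 0.705, with 28.7 CPM beside 0.0615 to 0.679 CPM. For Cacna1s it was 0.706, with 31.2 CPM beside 1.52 to 3.78 CPM. For Eno3 it was 0.706, with 143 CPM beside 23.7 to 40.2 CPM. For Myl1 it was 0.671, with 159.9 CPM beside 22.1 to 42.4 CPM. Myh4 itself was not among them, since its levels in the other AAV-Notum mice were spread over the scale.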

How the results depend on the processing

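No gene of the set reached an adjusted p under 0.05, and none an unadjusted p under 0.05, under any of the 18 alternatives run for the group comparison. The number of genes called in all was 8, and it was 451 with DESeq2, 14 with RLE size factors, 5 with a filter of at least 1 count, and 1 to 158 with 1 mouse left out (158 without AAV-GFP-2022, 1 without AAV-Notum-2033). The log2 fold change of Myh4 turned to -1.65 with limma-voom and ran from -1.07 to 2.45 with 1 mouse left out, below 0 only without AAV-Notum-2042. With limma-voom, Ckm was at -1.81, Acta1 at -0.49, Tnnt3 at -0.30, Myh1 at -0.017 and Myl1 at -0.11. With 1 mouse left out, Ckm ran from -1.13 to 2.09, Acta1 from -1.13 to 1.86, Tnnt3 from -0.96 to 2.15, Myh1 from -2.26 to 3.03, Ttn from -0.52 to 2.17 and Myl1 from -0.61 to 0.36, each below 0 without AAV-Notum-2042. The number of genes that followed Myh4 was 22, ran from 12 to 23 with 1 mouse left out, and was 14 without the 2 mice farthest from the median of Myh4. It was 17 to 22 under the other settings. The group difference of the log2 fast to slow ratio (-0.75) ran from -1.15 (without AAV-GFP-2022) to -0.435 (without AAV-Notum-2034), with -0.47 without AAV-GFP-2011, and it and the median slope on Myh4 (0.52) moved by less than 1 SD. No paired analysis was possible because the groups share no replicate numbers. Depth limits the slow fiber genes, Myh2 and Mb, which few reads carry in most mice.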

Other observations

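Markers of adipocytes, B and T cells, hepatocytes, brown and beige fat, smooth muscle and skin were compared with Myh4 over the 12 mice, together with the RNA integrity number and the total count (8 relations, permutation test). The adipocyte score was the closest, with r = 0.67 (rho = 0.69, adjusted p = 0.170, r = 0.51 without the 2 mice farthest from the median of Myh4). The lymphoid score had r = -0.41 (rho = -0.67, adjusted p = 0.334, r = -0.42 without them), and its ranks gave an adjusted p of 0.0812. Without AAV-GFP-2011 and AAV-GFP-2014, the 2 mice farthest from the median lymphoid score, r was -0.71. The RNA integrity number had r = -0.40 (rho = -0.39, adjusted p = 0.334, r = -0.39 without them). Over the 12 mice, none of the 8 passed the threshold of 0.05 after adjustment over these 8 relations. Adjusted over 15585 genes instead, the rank correlation of Myh4 with the lymphoid score had an adjusted p of 0.0373 (permutation test). Myh4 was thus among the 17 genes of the set named above as lower at higher score.

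Among the 10 adipocyte markers 0 followed Myh4. Cxxc4, a zinc finger protein that inhibits Wnt signaling, varied far less than the muscle genes it ranked beside, between 1.15 CPM in AAV-Notum-2032 and 4.29 CPM in AAV-GFP-2012. Mgst1, an abundant microsomal glutathione transferase with a mean of 856 CPM, was also among the genes of highest r (r = 0.91, rho = 0.90, adjusted p = 0.0246, permutation test, r = 0.84 without the 2 mice farthest from the median of Myh4), and was named after its values were seen.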
